A study of Mus musculus with 6 samples.

Results

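Accessible chromatin around the T-box genes Tbx2, Tbx3, Tbx15 and Tbx18 was described in 3 parts of the mouse embryonic face. The peaks of 6 libraries were merged wherever they overlapped by at least 1 bp, which gave 382006 regions, and 302188 of these had their strongest summit within 200 kb of the start site of a protein-coding gene. A region belonged to the T-box gene whose start site was nearest to that summit. This gave 245 regions, of which 53 lay nearest to Tbx2, 50 to Tbx3, 61 to Tbx15 and 81 to Tbx18. The farthest of them lay 199965 bp from its start site, and the nearest region beyond the limit lay at 200685 bp.

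T-box genes encode transcription factors that bind DNA through a shared domain, the T-box, and many of them set the identity or the growth of a body part. Tbx2 and Tbx3 are close relatives that act mainly as repressors of transcription, and loss of one copy of TBX3 causes ulnar-mammary syndrome. Tbx15 and Tbx18 form another pair of close relatives. Loss of Tbx15 alters the skeleton and the position of the ears, and Tbx18 is best known from the somites, the epicardium and the ureter.

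The libraries came from bulk ATAC-seq, in which a transposase cuts open DNA, of face tissue dissected from wild-type (WT) embryos at stage E11.5. The labels give the cell type as mixed, and the groups were 2 libraries each labelled maxillary process (upper jaw), mandibular process (lower jaw) and nose. They do not say whether the replicates were separate embryos, so every p-value measures only the spread between these libraries, which may be technical. The separate lists held between 219779 and 299731 summits, with the fewest in maxillary process replicate 1, and a list without a peak in a region does not show closed chromatin there.

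The jaw peak lists were named with each other's abbreviation, and the marker genes went against the jaw labels. Hand2, a factor that specifies the lower jaw, had 54 regions, of which the libraries labelled maxillary process had 36 and 32, against 24 and 25 in those labelled mandibular process, and 21 and 25 in those labelled nose. Of the Hand2 regions, 5 were found in the full pair of maxillary process libraries with none from the mandibular process pair, and 0 the other way round. Alx1, a factor of the frontonasal mesenchyme, had 0 regions of the first kind and 9 of the second. The libraries are therefore named below by their labels only, and each direction between the jaw labels holds for the libraries so labelled.

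The following 201-bp windows, centred on the strongest summit and read from the plus strand of GRCm38 (mm10), show the regions that the comparisons turn on. The first 4 are the regions whose summit height differed between labels, and the last pair were called only in the libraries of a single label. Each of that pair held the best-ranked summit, by p-value within its own list, among such regions of Tbx15 or of Tbx3. Capitals mark matches, on either strand, to the motifs searched: AGGTGTGA (a T-box half-site), GGTGTG (the shorter core of that site), CAGATG (an E-box site), TAATTA (homeodomain factors), GCCNNNGGC (Tfap2 factors), ACAAAG (Sox factors), TGTTTAC (forkhead factors) and AGGGGGC (part of the CTCF motif). Windows without capitals held no match.
Tbx18, downstream 48.7 kb (chr9:87682500-87682700): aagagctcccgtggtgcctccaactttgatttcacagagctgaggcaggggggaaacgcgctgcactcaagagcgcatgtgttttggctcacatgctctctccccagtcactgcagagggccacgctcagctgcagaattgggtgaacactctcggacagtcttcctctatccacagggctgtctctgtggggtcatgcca
Tbx18, upstream 134 kb (chr9:87864972-87865172): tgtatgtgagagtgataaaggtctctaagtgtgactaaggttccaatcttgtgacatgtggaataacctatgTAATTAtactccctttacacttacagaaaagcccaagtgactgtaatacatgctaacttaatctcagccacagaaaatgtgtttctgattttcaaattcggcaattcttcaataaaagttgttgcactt
Tbx15, downstream 194 kb (chr3:99447494-99447694): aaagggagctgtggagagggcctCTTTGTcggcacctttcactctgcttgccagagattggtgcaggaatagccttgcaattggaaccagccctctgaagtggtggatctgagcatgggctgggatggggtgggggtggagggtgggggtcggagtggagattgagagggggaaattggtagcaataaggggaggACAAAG
Tbx2, upstream 194 kb (chr11:85638794-85638994): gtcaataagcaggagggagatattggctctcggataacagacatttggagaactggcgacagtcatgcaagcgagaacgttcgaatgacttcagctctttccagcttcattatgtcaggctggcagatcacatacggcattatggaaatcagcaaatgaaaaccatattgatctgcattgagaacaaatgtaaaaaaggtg
Tbx15, downstream 41.6 kb (chr3:99295255-99295455): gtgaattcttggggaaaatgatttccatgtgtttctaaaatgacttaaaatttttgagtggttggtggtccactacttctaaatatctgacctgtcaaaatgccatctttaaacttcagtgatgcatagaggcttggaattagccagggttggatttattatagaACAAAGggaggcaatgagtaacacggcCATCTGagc
Tbx3, downstream 35.7 kb (chr5:119706641-119706841): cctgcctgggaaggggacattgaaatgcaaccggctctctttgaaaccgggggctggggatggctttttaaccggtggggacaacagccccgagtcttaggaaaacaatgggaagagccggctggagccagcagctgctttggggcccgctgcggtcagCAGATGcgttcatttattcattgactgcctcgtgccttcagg

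All 4 genes had open start sites in all 6 libraries. Of their 7 regions within 1 kb of a start, 6 were called in all 6 libraries, against 17717 of 31572 over all genes. The fold over background was read as the height of a summit relative to the local background of its own library. It is given in the order maxillary process replicates 1 and 2, mandibular process replicates 1 and 2, and nose replicates 1 and 2. The region at the Tbx3 start (chr5:119670189-119671141) had folds of 7.21, 8.88, 7.25, 8.11, 9.79 and 11.2. Its summit stood among the strongest 3.24% to 13.0% of each list, and the libraries labelled nose were the highest in fold. The region at the Tbx2 start (chr11:85832038-85833122) had folds of 6.05, 5.78, 4.85, 4.87, 6.38 and 6.03, lowest in both libraries labelled mandibular process. Tbx18 had a region on each side of its start. The downstream region (chr9:87729744-87731175) had folds of 5.96, 5.08, 5.2, 5.08, 6.37 and 4.45, and the upstream region (chr9:87731220-87731656) had 6.26, 4.85, 5.96, 5.83, 7.14 and 5.92. The label ranges overlapped at both. The best start-site peak of Tbx15 ranked below those of the other genes in every library. Its region around the start (chr3:99253553-99254220) had folds of 5.03, 4.34, 3.49, 4.47, 5.4 and 5.31, and its rank ran from the strongest 15.8% to the strongest 47.2% of a list. A neighbouring region (chr3:99252989-99253414) had folds of 4.18, 3.61, 4.39, 3.91, 4.1 and 4.35, and a further region 615 bp downstream was called in 3 libraries, a single one of each label. None of the 6 start-site regions called in all libraries passed the test of summit height given below.

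The 4 genes differed in where their regions lay. Of the Tbx2 regions, 49 of 53 lay upstream of the start, and none was intergenic, as the neighbouring gene Bcas3 and noncoding transcripts cover that flank in the annotation. The Tbx2 set rests on which start sites count. With every transcript of protein-coding genes as a start site, 48 of its 53 regions were nearest to a start inside Bcas3 and 5 stayed with Tbx2, whereas all regions of the other genes stayed with them. Tbx3 had 34 regions upstream and 16 downstream, and 24 lay in introns, most of them those of the antisense transcript Tbx3os1. Of the Tbx15 regions, 36 of 61 had their summit inside Tbx15 itself, and many of the others lay in introns of the upstream neighbour Wars2, a mitochondrial tryptophan tRNA synthetase. Tbx18 lay in open surroundings, with 70 of 81 regions intergenic. As a set the regions lay far from their start sites. Their median distance was 66.5 kb, against 34.1 kb over all 302188 regions, and 7 of 245 (2.86%) lay within 1 kb of a start, against 10.4% of all regions. Their median GC content was 48.3%, as over all regions, and ranged from 44.8% for Tbx18 to 54.7% for Tbx3.

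**Figure D1:**
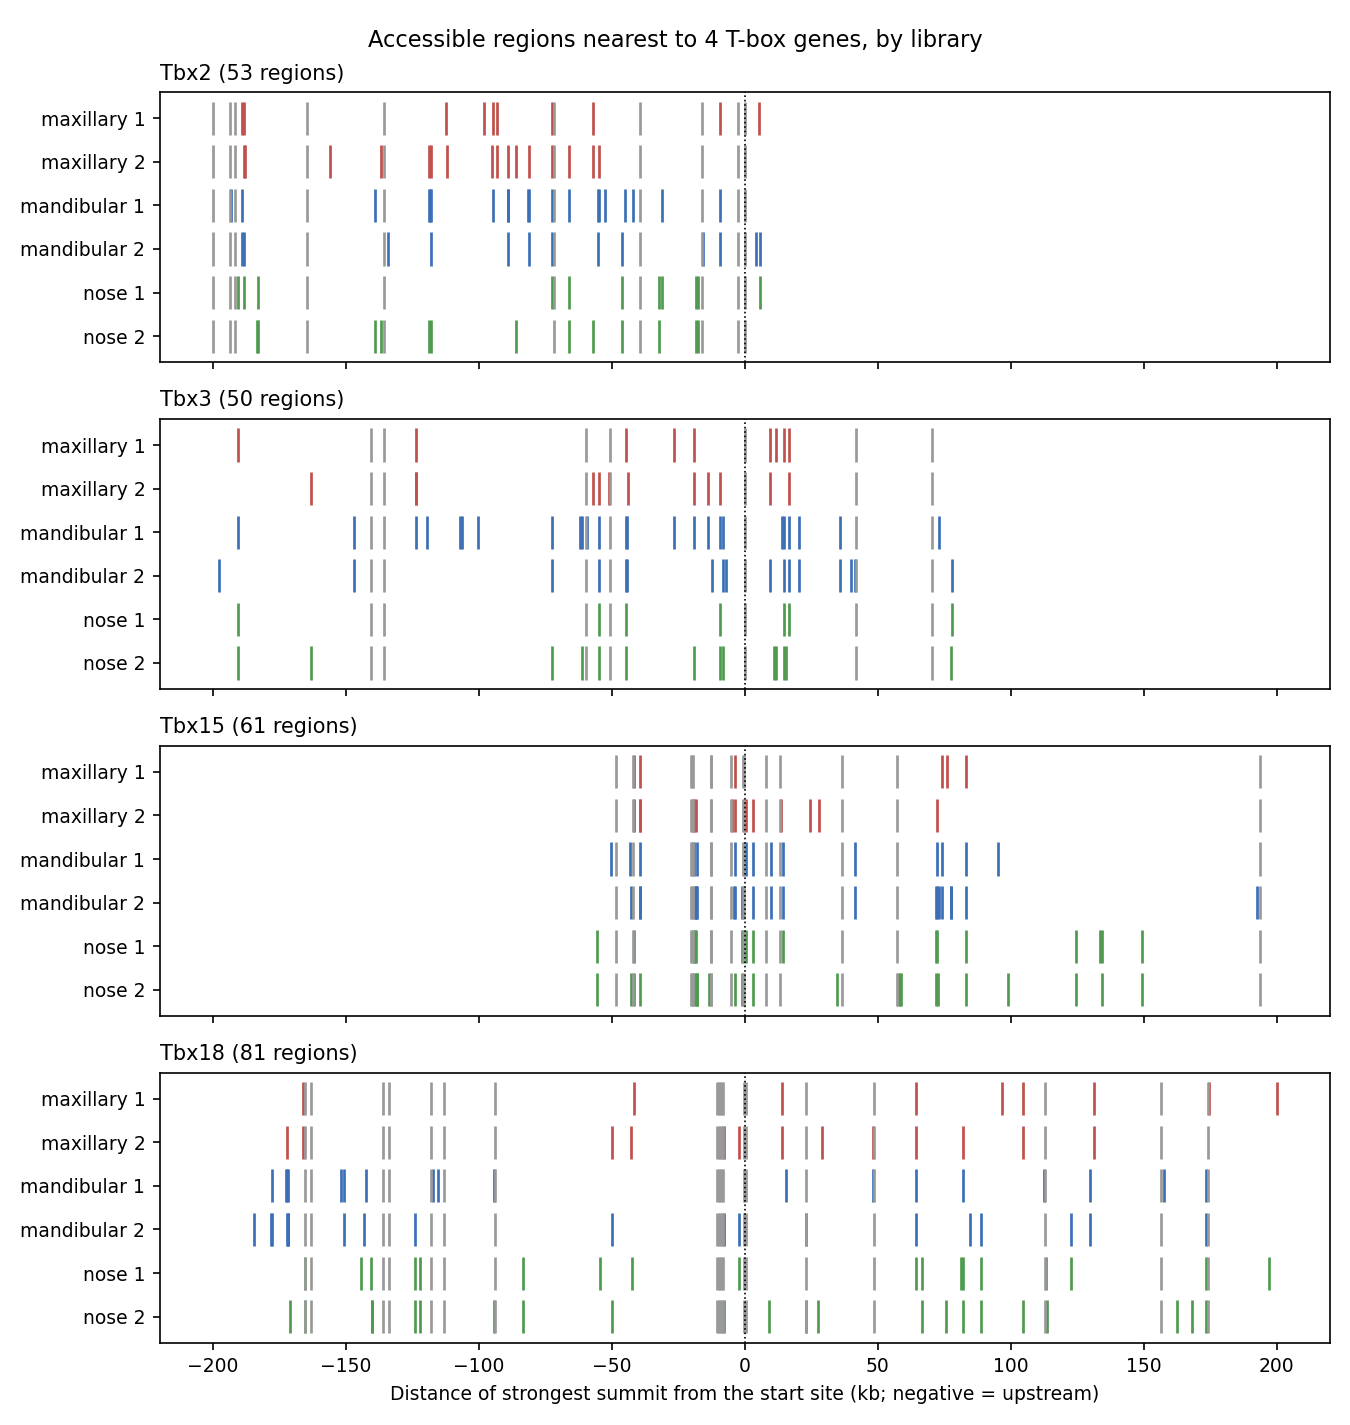
Each tick is a region called in a library (rows) at the distance of its strongest summit from the start site in kb, negative upstream, with a panel for each gene. Grey ticks are regions called in all 6 libraries and coloured ticks those called in fewer (red, maxillary process; blue, mandibular process; green, nose). Tbx2 had 49 of its 53 regions upstream, and Tbx18 had the most grey ticks (19).

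The share of regions found in all libraries was close to that of the whole genome. Of the 245 regions, 51 (20.8%) were called in all 6 libraries, against 20.2% of all regions, and 102 (41.6%) were called in a single library, against 42.7%. By gene, 10 of 53 were shared by all 6 libraries for Tbx2, 7 of 50 for Tbx3, 15 of 61 for Tbx15 and 19 of 81 for Tbx18. Regions called in a single library had a median width of 101 bp, and those called in all 6 had a median of 558 bp. By mean fold, the strongest shared region away from a start site was 113 kb upstream of Tbx18 (chr9:87843730-87844345). Its folds were 9.56, 13.5, 13.6, 8.93, 13.2 and 8.63, and the values of each label overlapped those of the others. For Tbx2 the strongest such region lay 164 kb upstream in an intron of Bcas3 (chr11:85667204-85668671), with folds of 6.55, 8.81, 9.1, 7.95, 9.19 and 11.4. For Tbx15 it lay 13.3 kb downstream, in an intron (chr3:99266698-99267233), with folds of 8.27, 8.72, 6.77, 7.56, 7.33 and 8.2. Those in the libraries labelled maxillary process were the highest there. For Tbx3 it lay 50.5 kb upstream, with its highest fold of 9.98 in maxillary process replicate 2, in an intron of Tbx3os1 (chr5:119619789-119620351). The other libraries had 5.71, 6.03, 5.85, 6.77 and 6.5 there.

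The number of regions called per library differed between the genes. Tbx2 had 20 and 26 regions with the maxillary process label, 30 and 23 with the mandibular process label, and 21 and 23 with the nose label. The label ranges of Tbx2 overlapped. Tbx3 had 16 and 19 regions with the maxillary process label, 32 and 24 with the mandibular process label, and 14 and 21 with the nose label. Both libraries labelled mandibular process were above the other 4. Mandibular process replicate 1 also held 10 of the 24 Tbx3 regions called in a single library. Its list had 299731 summits, against 299726 in maxillary process replicate 2, which held 5 of those regions. Tbx15 had 21 and 28 regions with the maxillary process label, 30 and 37 with the mandibular process label, and 31 and 38 with the nose label, so that the maxillary process label was below the other 4 libraries. Tbx18 had 28 and 32, then 37 and 38, then 37 and 41, with the maxillary process label again lowest. Over all regions, maxillary process replicate 1 was lowest as well, at 38.5%. Replicate 2 of that label, at 46.9%, was within the 46.6% to 50.2% of the libraries with other labels. The part of list length in these counts was not tested.

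**Figure D2:**
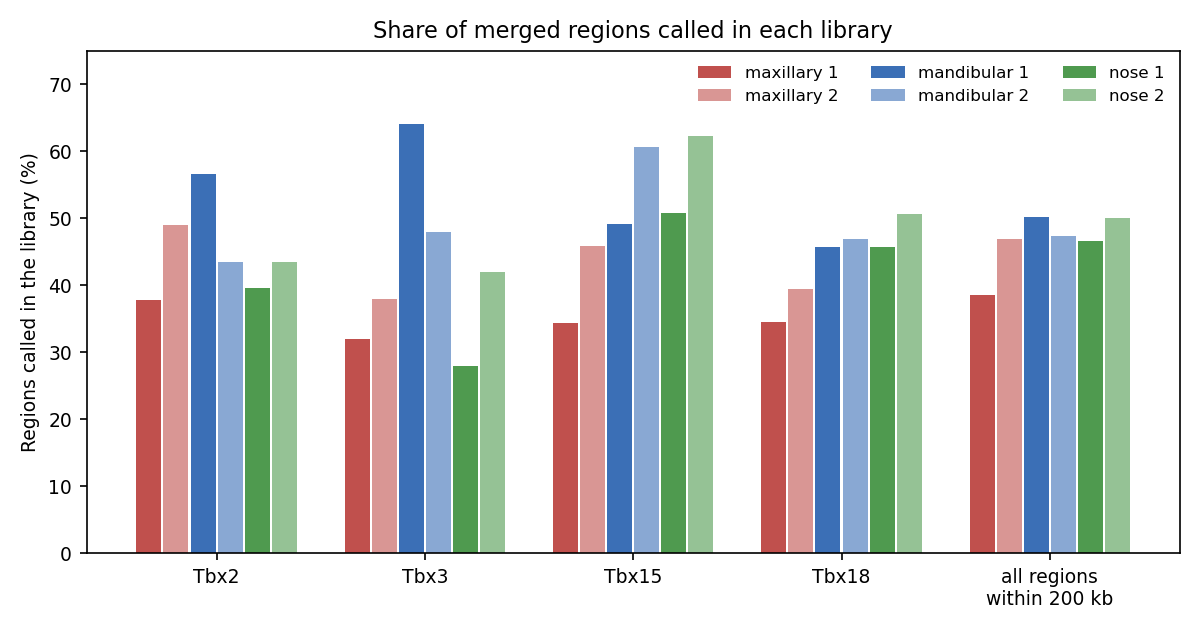
Bars give the percentage of each gene's regions that were called in each library, and of all regions within 200 kb of a start (right). Dark bars are replicate 1 and light bars replicate 2, and a bar is a single library without an error. Tbx3 has its highest bars in the libraries labelled mandibular process (32 and 24 of 50 regions).

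Some regions had peaks from the full pair of a label and from no other library. With 2 libraries per label no exact permutation test of a pair of labels can give a two-sided p below 0.333, so these counts are set beside the share over all 302188 regions. There were 4 such regions for the maxillary process label (1.63% of 245, against 1.84% of all regions), 11 for the mandibular process label (4.49%, against 2.64%) and 13 for the nose label (5.31%, against 2.90%). Regions of both other labels that were missing from a label were rare. A single region was called in all libraries but those labelled maxillary process (0.408%, against 1.16%), a single region in all but those labelled mandibular process (0.408%, against 0.775%), and 0 in all but those labelled nose (against 0.910%).

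Near Tbx3, 4 regions were called only in the libraries labelled mandibular process, and 0 only in those of either other label. The region 147 kb upstream had folds of 3.8 and 3.34, and that 44.3 kb upstream had 3.99 and 3.85. Downstream, the region at 20.3 kb had 3.42 and 3.15, and that at 35.7 kb, printed above, had 4.28 and 3.34. All 4 were weak, with −log10 q values between 1.8 and 3.44. With lists cut to equal length the count of such regions was 1, and under a −log10 q minimum of 3 the count was 2. None of the 4 regions above reached a −log10 q of 3 in both libraries. The 2 counted under that minimum were therefore other regions.

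Near Tbx15, 2 regions were called only with the mandibular process label and 4 only with the nose label. The best-ranked of them was the intronic region 41.6 kb downstream printed above (chr3:99295204-99295660), with folds of 6.23 and 6.27 and −log10 q values of 7.63 and 7.64 in the libraries labelled mandibular process. The other lay 9.73 kb downstream with folds of 2.91 and 3.07. For the nose label, the region 134 kb downstream (chr3:99387903-99388406) had folds of 6.31 and 5.75, and that 55.5 kb upstream in an intron of Wars2 (chr3:99198139-99198592) had 5.78 and 6.23. These intergenic and intronic peaks were well above the weakest peaks of their lists, whereas those 124 kb and 149 kb downstream were weaker, at 3.15 and 4.32 and at 3.15 and 3.36.

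Near Tbx2, 1 region was called only with the maxillary process label, 2 only with the mandibular process label and 4 only with the nose label. All of these were among the regions nearest to Bcas3 when every transcript was used, which left 0 for Tbx2. The nose regions included neighbours 18.1 kb and 17.7 kb upstream of the start, in introns of Bcas3 and 2610027K06Rik. The first had folds of 3.54 and 5.65 and the second 4.52 and 5.17. The regions at 183 kb and 32.3 kb upstream were weaker, with folds of 3.68 and 3.84 and of 3.15 and 3.84. The maxillary process region lay 93.0 kb upstream with folds of 4.15 and 4.74, and the mandibular process regions lay 89.1 kb and 55.2 kb upstream with folds of 3.33 to 3.81.

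Near Tbx18 the 3 labels had 3, 3 and 5 such regions. A pair of neighbours with different labels lay in the distal downstream flank. The region 131 kb downstream (chr9:87599625-87599876) was called only in the libraries labelled maxillary process, with folds of 4.23 and 5.92, and the region 130 kb downstream (chr9:87601095-87601422) only in those labelled mandibular process, with 4.28 and 7.15. The nose label had its highest such folds upstream, at 83.3 kb (chr9:87814394-87814811) with folds of 6.31 and 6.71 and at 122 kb (chr9:87853240-87853623) with folds of 4.11 and 6.79. For the nose label the others lay 89.0 kb and 66.5 kb downstream and 165 kb upstream, with folds between 3.15 and 4.32. For the maxillary process label they lay 14.0 kb downstream in an intron of Tbx18 (3.62 and 6.71) and 166 kb upstream (3.96 and 4.66). For the mandibular process label they lay 151 kb upstream (4.75 and 3.34) and 172 kb upstream (5.23 and 4.11).

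The pairs of labels were then compared over the regions called in any of their 4 libraries. Between the jaw labels, 7 of 203 regions had peaks from the full maxillary process pair and none from the mandibular process pair (3.45%, against 4.19% of all such regions), and 15 the other way round (7.39%, against 6.36%). Tbx3 had 0 of the first kind and 6 of the second, that is 12.8% of its 47 regions. The other genes were balanced or nearly so, with 2 and 2 for Tbx2, 1 and 3 for Tbx15 and 4 and 4 for Tbx18. Among the 6 Tbx3 regions, that 72.3 kb upstream in an intron of Tbx3os1 (chr5:119598144-119598787) was the strongest, with folds of 7.61 and 4.29 in the libraries labelled mandibular process and 3.84 in nose replicate 2. The 6 included the 4 Tbx3 regions called only with the mandibular process label. With lists of equal length the Tbx3 counts were 1 and 4, and under a −log10 q minimum of 3 they were 1 and 2. Of the 6 regions, only that 72.3 kb upstream reached a −log10 q of 3 in both libraries labelled mandibular process. The 2 counted under that minimum therefore included a region outside the 6.

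Between maxillary process and nose, 6 of 185 regions had the first label only (3.24%, against 4.43%) and 18 the second only (9.73%, against 6.60%). Tbx15 had 0 and 6, Tbx2 1 and 5, Tbx18 3 and 7, while Tbx3 had 2 and 0. Under a −log10 q minimum of 3 the nose count of the 4 genes fell to 7. Between mandibular process and nose, 16 of 217 had the first label only (7.37%, against 5.59%) and 14 the second only (6.45%, against 5.55%). Tbx3 had 4 and 0, and these 4 were the same regions named above as called only with the mandibular process label. Tbx2 had 5 and 4, Tbx15 3 and 5 and Tbx18 4 and 5. With lists of equal length the mandibular process count of the 4 genes was 8.

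**Figure D3:**
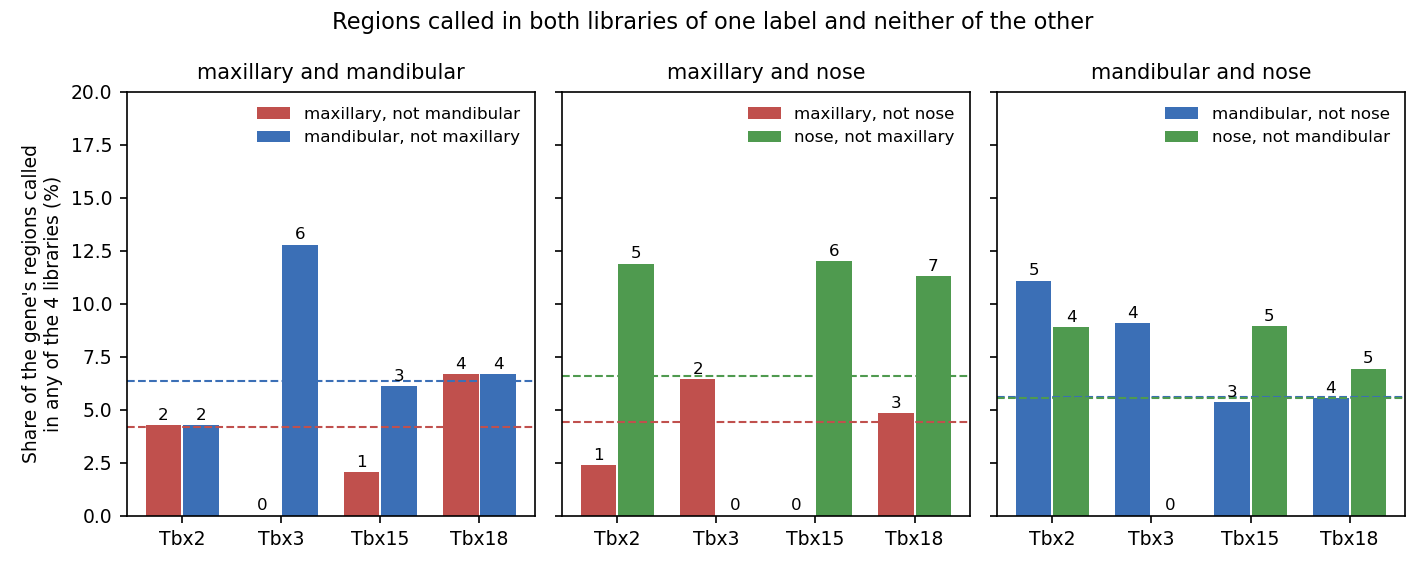
Bars give, for each pair of labels, the percentage of a gene's regions with peaks in both libraries of the named label and neither library of its partner, with the number of regions above the bar. Dashed lines are the same percentage over all regions in the colour of the label (4.19% and 6.36% in the left panel), and there is no error bar because each bar is a single count. Tbx3 has 6 against 0 regions on the side of the mandibular process label in the left panel.

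For the 51 regions called in all 6 libraries the summit heights could be tested. The log2 fold was quantile-normalized and fitted with limma over all 69940 such regions, with Benjamini-Hochberg adjustment over all of them and a threshold of 0.05. Few of the 51 regions passed, which does not show that the others were equal between labels. The median log2 difference over the 51 was −0.03 between maxillary and mandibular process. It was 0.00 between maxillary process and nose and −0.10 between mandibular process and nose. Higher summits with the maxillary than with the mandibular process label were called at 1 of the 51 (background 0.995%) and the reverse at 0 (0.977%). Maxillary process was above nose at 1 (1.33%) and below at 0 (0.942%), and mandibular process was above nose at 2 (2.01%) and below at 1 (1.57%). At an unadjusted p under 0.05, without the correction, 3, 2, 2, 5, 7 and 5 of the 51 passed in these 6 directions. Over all 69940 regions, 4782, 4806, 5148, 4687, 5860 and 5349 passed in the same order of directions.

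The clearest of these was an intergenic region 48.7 kb downstream of the Tbx18 start (chr9:87682028-87682796), beyond the end of the gene, printed first above. Its folds were 8.49 and 10.2 with the maxillary process label, 12.3 and 10.1 with the mandibular process label, and 4.2 and 6.23 with the nose label. Both jaw labels were above nose without overlap. The normalized log2 difference was 1.10 (SE 0.22, limma adjusted p = 0.00236) for mandibular process minus nose and 0.85 (SE 0.22, limma adjusted p = 0.0259) for maxillary process minus nose. Leaving out single libraries, the first difference stayed past the threshold in 4 of 6 fits, failing without mandibular process replicate 1 (limma adjusted p = 0.0722) or nose replicate 1 (0.0578). The second held in 3 of 6, failing without either library labelled maxillary process (0.197 and 0.193) or without nose replicate 1 (0.32).

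A region 194 kb downstream of the Tbx15 start (chr3:99447208-99448333), also intergenic, was higher with the maxillary process label. Its folds were 7.87 and 9.6 there, 4.28 and 3.81 with the mandibular process label and 5.69 and 4.63 with the nose label. The log2 difference between the jaw labels was 1.12 (SE 0.25, limma adjusted p = 0.0126). It lost the call without any single library of the jaw labels, with limma adjusted p-values of 0.144 and 0.158 without the maxillary process replicates and 0.0513 and 0.109 without the mandibular process replicates.

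The remaining pair separated mandibular process from nose in opposite directions. A region 134 kb upstream of Tbx18 (chr9:87864941-87865608) had folds of 4.51, 6.38, 3.33, 3.77, 6.39 and 6.45, lowest with the mandibular process label. The difference was −0.87 (SE 0.25, limma adjusted p = 0.0416). A region 194 kb upstream of Tbx2 in an intron of Bcas3 (chr11:85638711-85639160) had folds of 3.85, 4.98, 5.24, 6.77, 3.41 and 3.1, lowest with the nose label. Its difference was 0.85 (SE 0.24, limma adjusted p = 0.0336), and with every transcript as a start site this region was nearest to Bcas3, at 1.81 kb. Neither kept its call in any of the 6 fits without a single library, in which the limma adjusted p ranged from 0.0672 to 0.295 for the Tbx18 region and from 0.0506 to 0.256 for the Tbx2 region. None of the 7 shared Tbx3 regions passed in any contrast, and their smallest limma adjusted p was 0.19, for mandibular process and nose.

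**Figure D4:**
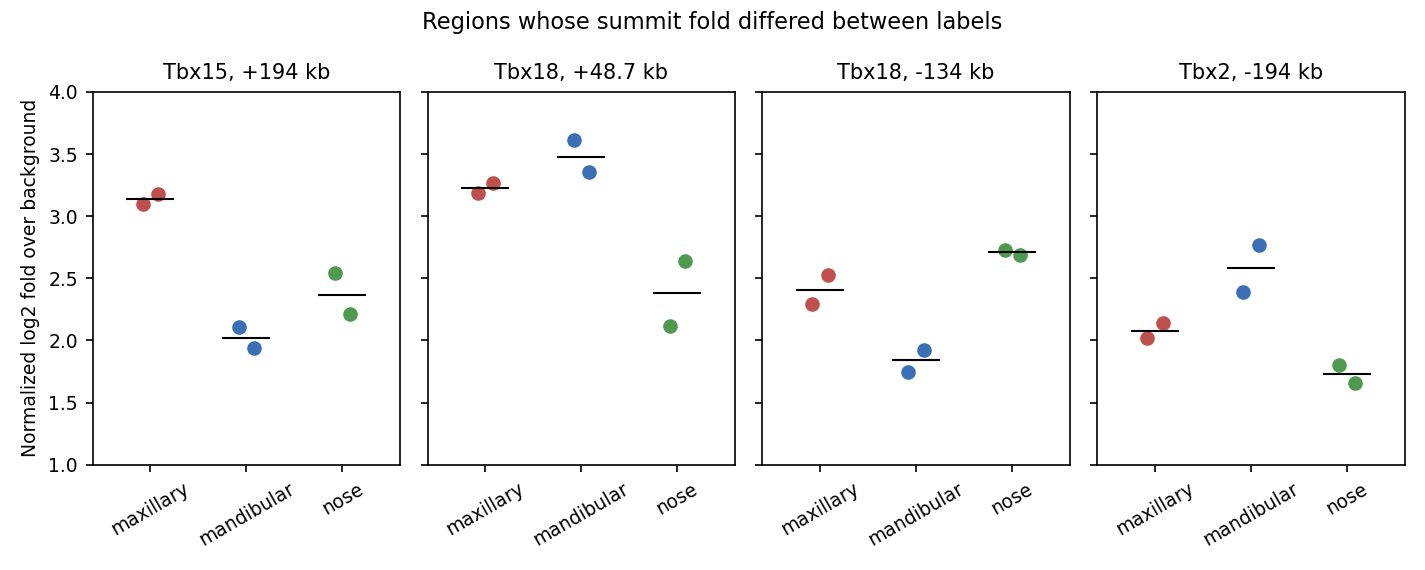
Points are the quantile-normalized log2 fold over background of each library and lines the mean of a label, for the 4 regions called by limma; the vertical axis starts at 1. At the Tbx18 region 48.7 kb downstream, all 4 jaw-labelled libraries lie above both libraries labelled nose.

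Motif matches were counted in the windows of the 245 regions and set beside those of all regions. The T-box half-site AGGTGTGA was in 0 of the 245 windows, against 0.608% of all windows, and its core GGTGTG was in 19 (7.76%, against 12.3%). Among the 51 windows called in all 6 libraries, 0 held the core, against 11.4% of all such windows, while TAATTA was in 6 (11.8%, against 3.44%), ACAAAG in 11 (21.6%, against 13.8%) and CAGATG in 12 (23.5%, against 19.0%). GCCNNNGGC was in 5 of them (9.80%, against 11.6%), AGGGGGC in 4 (7.84%, against 8.96%) and TGTTTAC in 2 (3.92%, against 2.44%). The E-box CAGATG was in 58 windows (23.7%, against 20.3%), TAATTA in 16 (6.53%, against 4.68%), ACAAAG in 41 (16.7%, against 16.5%) and GCCNNNGGC in 19 (7.76%, against 7.04%). TGTTTAC (2.86%, against 3.05%) and AGGGGGC (4.90%, against 4.63%) were the other 2. Within the set, ACAAAG was in 24.7% of the Tbx18 windows and 8.0% of the Tbx3 windows, and GCCNNNGGC in 14.0% of the Tbx3 windows and 2.47% of the Tbx18 windows. Of the windows printed above, that 194 kb downstream of Tbx15 held ACAAAG at 2 places, and that 41.6 kb downstream held it once with CAGATG. These are matches of letters only and were not tested.

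The 13 other T-box genes had 276 regions, of which 52 (18.8%, against 20.2% of all regions) were called in all 6 libraries. Of the 13 genes, 7 had a start-site region called in all 6. The 13 genes had 1, 3 and 4 regions called only with the maxillary process, mandibular process and nose label, respectively (0.362%, 1.09% and 1.45%). Over all regions these shares were 1.84%, 2.64% and 2.90%. For Tbx2, Tbx3, Tbx15 and Tbx18 the counts were 4, 11 and 13 (1.63%, 4.49% and 5.31%). The difference between these sets was not tested. Of their 52 shared regions, 0 differed between the jaw labels (over all regions, 0.995% and 0.977% in the 2 directions). Between maxillary process and nose, 1 was lower with maxillary process (0.942% over all regions) and 0 were higher (1.33%). Between mandibular process and nose, 1 was higher with mandibular process (2.01%) and 1 lower (1.57%). A region 44.9 kb from the start of Tbx22, a gene mutated in X-linked cleft palate, was lower with the mandibular process than the nose label (log2 difference −1.04, SE 0.24, limma adjusted p = 0.00937). A region near the hindlimb gene Tbx4 went the other way (1.03, SE 0.24, limma adjusted p = 0.0105), and a region near the cardiac gene Tbx20 was lower with the maxillary process than the nose label (−0.89, SE 0.25, limma adjusted p = 0.0496). These 3 regions were not refitted without single libraries.

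The genes most like each T-box gene were those whose shares of regions called in the 6 libraries lay nearest by Euclidean distance, among up to 1000 genes of similar region number. For Tbx2 these were Rgl1 (distance 0.0316), Fbxo11 and Ror2 (0.0599 each), and for Tbx18 Plxna2 (0.0394), Galntl6 (0.04) and Lrrc4 (0.0514). Tbx15 was nearest to Rgma (0.0934), Vps41 (0.098) and Cmip (0.101). Tbx3 had the most distant neighbours of the 4, which were Gm9195 (0.123), 3110018I06Rik (0.126) and Tmem178 (0.131).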

How the data were processed

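Bulk ATAC-seq was measured in 6 libraries from the face of wild-type mouse embryos, grouped by their tissue labels. Bowtie2, SAMtools and mm10 are listed in the processing notes of the submitters, without versions, and the peak caller is not given in the sources used here. The authors deposited a peak list for each library, with a score, a fold, a −log10 p-value and a −log10 q-value for each summit. The layout of the lists was used to read the fold as the ratio of a summit to its local background. The deposited score is the −log10 p multiplied by 10, cut to a whole number and capped. Lists of different length and weakest −log10 q (1.3 in 4 libraries, 1.62 and 2.55 in the others) affect which regions count as called. Since neither reads nor coverage were used here, depth in reads is unknown and no limit of detection can be given.

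Start sites were those of protein-coding transcripts of 21827 genes in the GENCODE M21 basic annotation on GRCm38. Distances are from the nearest of them. Shares in a comparison of 2 labels are over regions called in any of their 4 libraries. The fold of a region is the highest of a library's summits in it, and regions called in all 6 libraries were tested with limma 3.58.1 in R 4.3.3 (trend and robust options, 1 fit over all labels, median SE of a difference 0.239 on the log2 scale). Fitting was tested on simulated data, in which it called 16% of added log2 differences of 0.5, 62% of 1.0 and 98% of 1.5. The simulated noise was normal, independent between libraries and drawn with the spread that the fit itself had estimated. It held no outlying library or shared batch, so these shares need not hold for the real libraries. Motifs were searched 100 bp to each side of the strongest summit. Python 3.11.15, numpy 2.4.6, pandas 2.3.3 and matplotlib 3.10.9 were used.

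The text names every start-site region, every region of a single label or called by limma, the strongest distal shared region of each gene, and examples of regions of a label and not another. The genes, lists and tests were chosen with earlier results of these data known. Alternatives were a −log10 q of at least 3 or 5, lists of equal length (219779 summits), cover of 50% or 200 bp of a region, distance limits of 100 and 500 kb, every transcript of protein-coding genes in the full GENCODE M21 annotation as start sites, median centring, −log10 p in place of fold, a replicate block, a filter on low fold, and leaving out each library.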

Additional observations from a re-analysis of the deposited data

How the results depend on the processing

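All 4 regions called by limma kept their direction and their call under every alternative to the fit that kept them, other than leaving out a library, which over their 5 differences ended 21 calls and kept 9. The filter on low fold removed all but the Tbx18 region 48.7 kb downstream, and a distance limit of 100 kb would leave out the same 3. The counts of presence depended on the weakest peaks, and depth in reads was not used here. A stricter minimum removes weak peaks, so a region can also newly count for a single label.

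For the 4 genes together, a −log10 q of at least 3 and of at least 5 gave 145 and 88 regions in all (245 as reported) and 28 and 13 called in every library (51). Regions only with the mandibular process label became 6 and 4, only with nose 5 and 4, and only with maxillary process 2 at 5. At 3 and 5, mandibular but not maxillary process became 6 and 4, nose but not maxillary process 7 and 4, and nose but not mandibular process 9 and 7. At 5, maxillary but not mandibular process became 3 and mandibular process but not nose 10. Lists of equal length gave 6 regions only with mandibular process, 9 with mandibular but not maxillary process and 8 with mandibular process but not nose. Cover of 50% or 200 bp gave 32 regions called in every library. A limit of 100 kb gave 160 regions in all, 2, 7 and 7 only with maxillary process, mandibular process and nose, 4 with maxillary but not mandibular process, 3 with maxillary process but not nose, 10 with nose but not maxillary process, 10 with mandibular process but not nose and 8 the reverse. A limit of 500 kb gave 23 with mandibular but not maxillary process, 10 with maxillary process but not nose and 26 with mandibular process but not nose. All transcripts as start sites changed no count of the 4 genes together by over 1.5 times, but left Tbx2 with 5 regions in place of 53, 2 called in every library in place of 10 and 0 of a single label or of a label and not another.

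Of the limma counts, maxillary above mandibular process became 2 with median centring and with −log10 p, and 0 with the filter on low fold. With −log10 p, maxillary process above nose became 2, mandibular process above nose 5 and nose above mandibular process 2. The filter gave 1 and 0 for the last pair. For libraries of the same replicate number, the correlations of their deviations from the label means were 0.00702, 0.0646 and 0.0311. Such values cannot show whether these libraries shared an embryo or a batch. With the replicate number as a block, 2 regions were above in maxillary over mandibular process in place of 1, 3 in mandibular process over nose in place of 2, and the other 4 directions kept their counts. Over all regions the block raised the calls of mandibular above maxillary process from 683 to 1072, of maxillary above mandibular process from 696 to 1076 and of nose above maxillary process from 659 to 1072.

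Leaving out each library in turn gave 222 to 241 regions in all and 50 to 54 called in every library. Counts for a label left with a single library rise by construction. The ranges were 4 to 20, 12 to 41 and 13 to 34 for regions only with maxillary process, mandibular process and nose, 7 to 26 for maxillary but not mandibular process and 15 to 52 the reverse, 6 to 28 for maxillary process but not nose and 18 to 49 the reverse, and 16 to 51 for mandibular process but not nose and 14 to 41 the reverse. The limma counts ranged from 0 to 1 in 4 directions and were 0 throughout for mandibular above maxillary process and nose above maxillary process. The cause of these changes was not tested.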
